A study of Homo sapiens with 6 samples.

Results

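The 8 genes described here, of cellular sterol sensing, cholesterol uptake and cholesterol storage, were followed in RNA-seq of cells exposed to cationic liposomes (CLs). They are INSIG1, INSIG2, SREBF2, SCAP, STARD4, NPC1, NPC2 and SOAT1, taken by gene symbol, and all 8 of 8 were found among the 40205 genes of the count table. The Control group held 3 samples labelled control (Control-1 to Control-3), for which no vehicle is named. The 3 samples of the CLs-treated group (CLs-1 to CLs-3) had 24 h of CLs at a dose that the sample labels put at 120 μM, while the study's text also has the same number in μg/ml. CLs are particles of the cationic lipid DOTAP, cholesterol and a PEG-linked phospholipid, so cholesterol is part of the material given to the cells. All 6 samples are labelled HepG2, a human hepatoma cell line, grown in medium with 10% serum, a source of lipoproteins. Nothing in the labels says whether the replicates came from separate cultures, so p-values measure only the spread between these samples.

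Cells hold their cholesterol level by a feedback loop in the membrane of the endoplasmic reticulum (ER). SCAP carries the precursor of SREBP2, the transcription factor encoded by SREBF2, to the Golgi apparatus, where proteases release its active part, and it does so while ER cholesterol is low. The INSIG proteins hold SCAP and its cargo in the ER while sterols are plentiful. Active SREBP2 switches on the enzymes of cholesterol synthesis, lipoprotein uptake, INSIG1, STARD4 and its own gene. Cholesterol that enters in lipoproteins is set free in late endosomes and lysosomes, where NPC2 hands it to NPC1 for export. STARD4 carries sterols between membranes in the cytosol, and SOAT1 esterifies surplus cholesterol in the ER for storage in droplets.

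Total gene counts ran from 11418527 to 13998946 in the 6 libraries. The libraries were checked against the label HepG2 with 20 liver and hepatoma markers, and the data go against it. TTR and APOH had 0 counts in all 6 libraries, and at this depth 0 counts allow up to 3 counts, or 0.263 CPM (the count scaled to library size) in the smallest library. Albumin (ALB) was found in a single library, CLs-1, with 8 counts, and alpha-fetoprotein (AFP) never exceeded 1 count. The summed level of the 20 markers was 2.17 to 4.06 CPM in the other 5 libraries and 15.2 CPM in CLs-1. A list of 9 fibroblast markers was split. COL3A1, FBLN1, COL1A1 and PDGFRB had at least 7456, 4905, 764 and 167 counts in every library, while THY1, COL1A2, DCN, LUM and POSTN had at most 5 counts in any library but CLs-1. The list summed to 1209 to 1649 CPM, with COL3A1 and FBLN1 the highest in it. The cells are therefore called here the cells labelled HepG2.

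CLs-1 also stood apart from the other libraries. The 7 red cell markers summed to 33.2 CPM in CLs-1 and to at most 0.347 CPM elsewhere. The 10 steroidogenic markers summed to 60.2 CPM in CLs-1 and 21.9 to 26.9 CPM elsewhere. Among them STAR reached 290 counts there, against 3 or fewer elsewhere, and CYP11B1, CYP21A2 and MC2R were at 0 in all libraries. CYP11A1 was also higher there, at 151 counts against 11 to 29, while FDX1 had 250 against 147 to 206. COL1A2 of the fibroblast list reached 1044 counts in CLs-1, against 2 or fewer elsewhere. That list as a whole did not set CLs-1 apart. It summed to 1335 CPM there, within the 1209 to 1649 CPM of the other libraries. COL3A1 and FBLN1 had 9697 and 5709 counts in CLs-1, against 7456 to 11358 and 4905 to 6423 elsewhere. The part of such RNA in the members' values of CLs-1 was not tested. Values are therefore also given without CLs-1. In bulk RNA, fewer cells of a type and less RNA per cell cannot be told apart.

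All 8 members had enough reads to be among the 15047 genes compared by edgeR's quasi-likelihood test on TMM-scaled counts. None of the 8 members passed the study's criteria, an adjusted p-value under 0.05 with a fold change above 1.5 or below 0.67, which 0.0864% of all genes tested passed. The study used another test, EBSeq, and lists INSIG1 among its differentially expressed genes. An unadjusted p-value under 0.05 was found for 2 of the 8, INSIG1 and STARD4, both lower in the CLs-treated group, against 5.81% of all genes in either direction and 3.62% lower. With DESeq2's Wald test 1 member, INSIG1, passed the criteria, against 0.753% of the 13950 genes with an adjusted p-value there. Of the 8 log2 fold changes 7 were below 0, against 47.9% of all genes, and their median was -0.15, against 0.01 for all genes.

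The promoters of INSIG1, STARD4 and SREBF2, the members known as SREBP2 targets, are shown because they carry matches to short elements at which this factor or its partner NF-Y are known to bind. The sequences are RefSeq's, build GRCh38.p14, and are the 250 bases before the start site on the gene's strand. They lie at chr7:155297628-155297877 (plus strand) for INSIG1, chr5:111512536-111512785 (minus strand) for STARD4 and chr22:41832855-41833104 (plus strand) for SREBF2. Capitals mark matches on either strand to CCAAT, the NF-Y box, and to TCACNCCAC, the core of a sterol regulatory element.
INSIG1: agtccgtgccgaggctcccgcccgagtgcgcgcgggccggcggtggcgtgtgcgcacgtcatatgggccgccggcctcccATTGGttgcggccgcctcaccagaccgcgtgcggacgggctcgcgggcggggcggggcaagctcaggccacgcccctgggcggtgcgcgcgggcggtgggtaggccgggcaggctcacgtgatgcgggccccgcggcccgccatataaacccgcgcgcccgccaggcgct
STARD4: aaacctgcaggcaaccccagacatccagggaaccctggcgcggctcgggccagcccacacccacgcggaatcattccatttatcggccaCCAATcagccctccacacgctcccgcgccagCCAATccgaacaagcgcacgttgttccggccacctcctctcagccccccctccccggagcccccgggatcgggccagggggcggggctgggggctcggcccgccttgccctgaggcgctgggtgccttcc
SREBF2: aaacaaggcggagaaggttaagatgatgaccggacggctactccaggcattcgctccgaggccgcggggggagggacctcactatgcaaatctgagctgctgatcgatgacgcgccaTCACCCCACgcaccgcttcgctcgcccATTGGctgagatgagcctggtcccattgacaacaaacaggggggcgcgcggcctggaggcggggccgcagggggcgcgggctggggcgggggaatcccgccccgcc

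The windows searched ran from 250 bases before to 50 bases after each start site. The SREBF2 window held TCACNCCAC 133 bases before the start site, the sole match among the 10 windows of the 8 members. This core was found in 1.13% of all 35116 windows. None of the 16 cholesterol synthesis genes that the table covers had a match, known SREBP2 targets among them, so the absence of these letters says nothing of the factor. CCAAT stood in the windows of 5 of the 8 members, INSIG1, SREBF2, STARD4, NPC2 and SOAT1, with a pair in STARD4 and in NPC2. It was found in 39.7% of all 27305 genes with a window and in 13 of the 16 synthesis genes. Genes of cholesterol esterification had it in 4 of 5 and those of sterol transport in 9 of 20. Lipoprotein receptors and adaptors had it in 5 of 18 genes and SREBP processing in 3 of 10. GGGCGG, the GC box, was in the windows of all 8 members and of 48.3% of all genes. It was also in those of 14 of the 16 synthesis genes and 17 of 20 genes of sterol transport, so it is not particular to the members.

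INSIG1, which keeps SCAP in the ER and is itself induced by SREBP2, gave the largest difference of the 8 members. Its level was 52.1, 54.4 and 70.6 CPM in the controls, given here and below in the order of replicate number. The CLs-treated samples had 41.1, 31.0 and 26.4 CPM. All 3 CLs-treated samples lay below all 3 control samples, and Control-3 was the highest of the 6. INSIG1 was the sole member whose groups did not overlap, a separation seen in 11.5% of all genes in either direction and in 6.18% with the CLs-treated group lower. The means were 59.0 ± 10.1 CPM (SD, n = 3) and 32.8 ± 7.54 CPM (SD, n = 3). The log2 fold change was -0.84 (standard error, SE, 0.19), with a 95% interval of 0.418 to 0.743 for the fold. Its p-value ranked 66 among the 15047 genes, and the adjusted p-value was 0.201 by edgeR's quasi-likelihood test. By DESeq2's Wald test the adjusted p-value was 0.00863, and in edgeR with every gene that had a read, where 0.672% of genes passed the criteria, it was 0.00702. The call of INSIG1 thus rests on the test and on the filter.

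INSIG2, the second ER anchor of SCAP, which unlike INSIG1 is not known as an SREBP2 target, was measured at a low level. It had 5.04, 8.81 and 7.63 CPM in the control samples and 7.89, 6.05 and 7.10 CPM after CLs. The groups overlapped fully, and the lowest and the highest sample were both controls. The log2 fold change was -0.03 (SE 0.25, adjusted p = 0.999), and the 95% interval of the fold, 0.673 to 1.43, leaves room for a change in either direction.

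**Figure D1:**
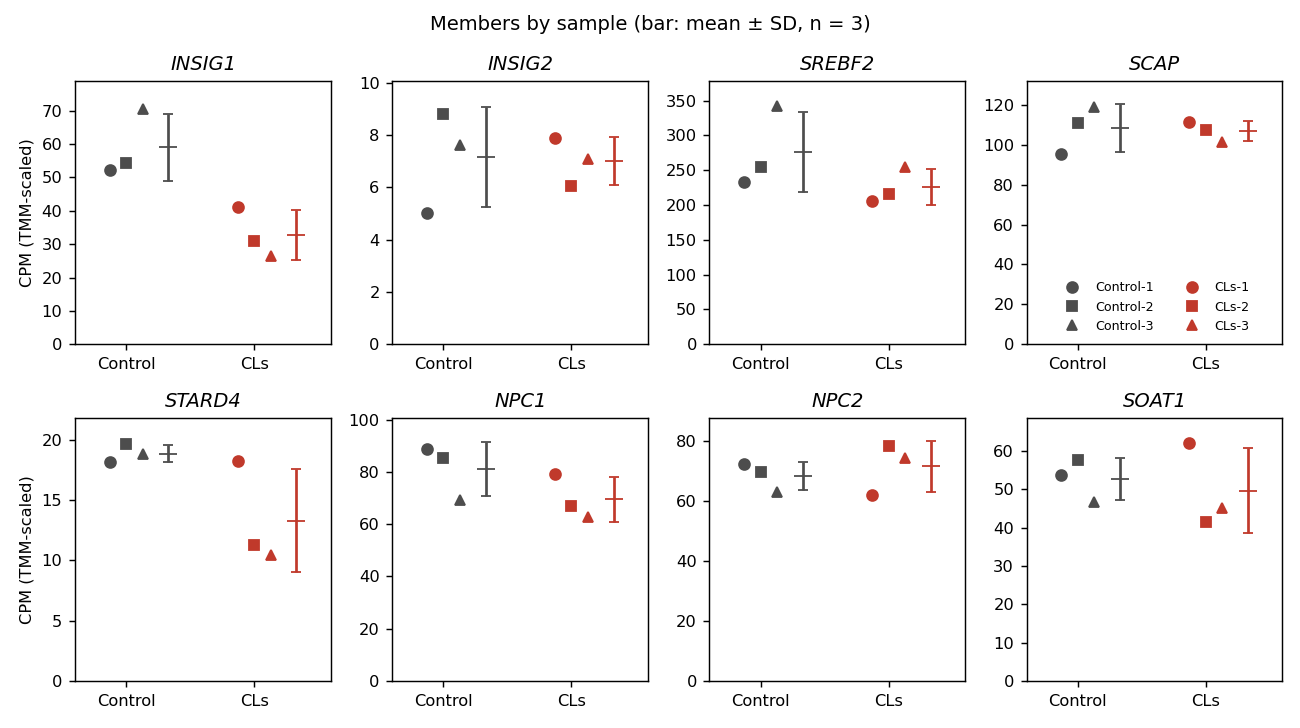
Level of each member in each sample, in CPM on TMM-scaled totals (vertical axis, from 0), with Control samples in grey and CLs-treated samples in red. Bars show the group mean and SD of 3 samples. INSIG1 is the panel in which the groups are apart, from 52.1 to 70.6 CPM and from 26.4 to 41.1 CPM, and in the STARD4 panel CLs-1 lies among the controls.

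The count ratio of the INSIG genes within a sample does not depend on how libraries are scaled. INSIG1 had 10.3, 6.18 and 9.25 reads for each read of INSIG2 in the controls. After CLs it had 5.21, 5.13 and 3.72. Every CLs-treated sample was below every control sample, with Control-2 nearest to them. The mean log2 ratio was 3.07 ± 0.39 (SD, n = 3) without and 2.21 ± 0.28 (SD, n = 3) with CLs. The difference of -0.86 had an exact permutation p = 0.1 (two-sided), the smallest that 3 against 3 samples allow.

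SREBF2 encodes SREBP2 itself. Its level was 234, 255 and 342 CPM in the control samples and 206, 216 and 255 CPM in the CLs-treated samples. CLs-3 lay above Control-1, so the groups overlapped, and Control-3 stood above the rest. On the log2 scale the difference was -0.30 (SE 0.17, adjusted p = 0.922), with a fold interval of 0.633 to 1.05. Without Control-3 the difference was -0.11 (adjusted p = 0.998). Without Control-1 it was -0.40, with an unadjusted p of 0.0426 and an adjusted p of 0.808 by edgeR's quasi-likelihood test. Leaving out any other single sample gave no unadjusted p under 0.05.

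SCAP, the escort of SREBP2, had the smallest difference between the groups. It had 95.3, 111 and 119 CPM in the control samples and 111, 108 and 101 CPM in the CLs-treated samples, which all lay within the range of the controls. Its log2 fold change was -0.02 (SE 0.13, adjusted p = 0.999), with a fold interval of 0.803 to 1.21. The sign of this value is not fixed, since it was above 0 when libraries were scaled by their totals alone and without Control-3 or CLs-3.

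STARD4, the cytosolic sterol carrier, had nearly the same level in the 3 controls, 18.1, 19.6 and 18.8 CPM. CLs-1 was at the same level, 18.2 CPM, while CLs-2 and CLs-3 had 11.2 and 10.4 CPM. The means were 18.8 ± 0.728 CPM (SD, n = 3) and 13.3 ± 4.28 CPM (SD, n = 3). A log2 fold change of -0.50 (SE 0.22) was estimated, with an unadjusted p of 0.0451 and an adjusted p of 0.842 by edgeR's quasi-likelihood test. The 95% interval of the fold was 0.506 to 0.991. Without CLs-1 the log2 fold change was -0.80 (adjusted p = 0.215), over 1.5 times that with it. Without CLs-2 it was -0.39 and without CLs-3 -0.35, with unadjusted p of 0.144 and 0.165 by the same test. Without Control-1, Control-2 or Control-3 the unadjusted p was 0.0664, 0.106 and 0.0684.

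NPC1, the membrane protein of sterol export from late endosomes, had 88.8, 85.2 and 69.3 CPM in the control samples and 79.1, 66.8 and 62.6 CPM in the CLs-treated samples. CLs-1 lay above Control-3, so the groups overlapped, and the log2 fold change was -0.22 (SE 0.15, adjusted p = 0.960), with a fold interval of 0.683 to 1.08. NPC2, its soluble partner in the lumen, had 72.2, 69.4 and 62.9 CPM in the control samples and 61.8, 78.1 and 74.4 CPM in the CLs-treated samples. CLs-1 was the lowest of the 6 and CLs-2 and CLs-3 the highest. NPC2 had a log2 fold change of 0.07 (SE 0.14, adjusted p = 0.998), with a fold interval of 0.847 to 1.29.

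The ratio of NPC1 to NPC2 counts was 1.23, 1.23 and 1.10 in the controls. After CLs it was 1.28, 0.855 and 0.842, so CLs-1 was above all controls and the other CLs-treated samples below them. The mean difference on the log2 scale was -0.28 (exact permutation p = 0.4, two-sided). Without CLs-1 it was -0.48, with an exact permutation p = 0.1, the smallest possible for 2 against 3 samples. Without CLs-2 it was -0.19 and without CLs-3 -0.18, with an exact permutation p = 0.7 for both.

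**Figure D2:**
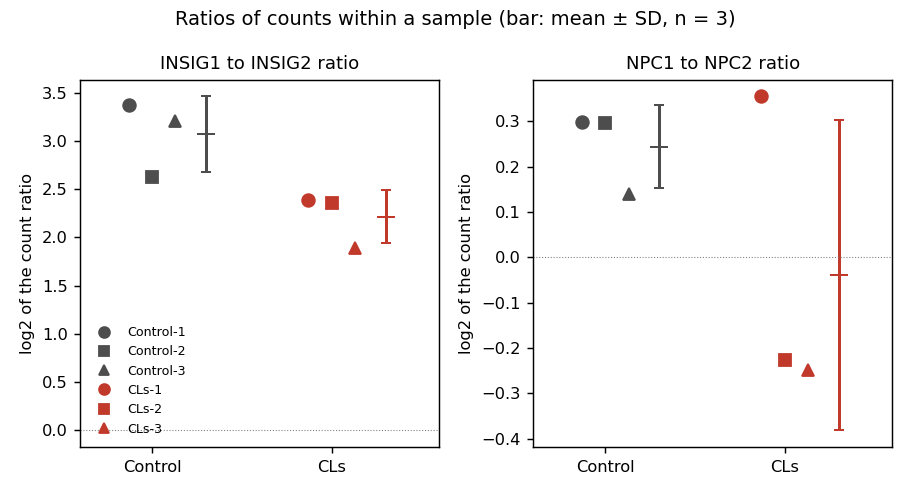
Log2 ratio of counts within each sample, for INSIG1 over INSIG2 (left) and NPC1 over NPC2 (right), Control in grey and CLs in red, with bars for the mean and SD of 3 samples. The left panel shows both groups apart, at means of 3.07 and 2.21. The right panel shows CLs-1 at 0.35, above the controls at 0.14 to 0.30, and CLs-2 and CLs-3 below them at -0.23 and -0.25.

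SOAT1, which esterifies cholesterol, had 53.8, 57.7 and 46.8 CPM in the control samples. In CLs-1 it had 62.2 CPM, the highest of the 6 samples, and in CLs-2 and CLs-3 41.5 and 45.1 CPM, the lowest. Its log2 fold change was -0.09 (SE 0.17, adjusted p = 0.998), with a fold interval of 0.724 to 1.22, and without CLs-1 it was -0.29 (adjusted p = 0.568). SOAT2, the form of this enzyme known from liver and intestine, had at most 2 counts in any library and was too low to test.

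CLs-1 was the highest of the CLs-treated samples for 6 members and the lowest for SREBF2 and NPC2. With CLs-2 and CLs-3 alone against the 3 controls, 5 of the 8 members did not overlap between the groups. INSIG1, STARD4, NPC1 and SOAT1 were lower and NPC2 higher, against 13.6% of all genes lower and 13.7% higher in that comparison. At an unadjusted p-value under 0.05 were INSIG1, STARD4 and NPC1, 3 of the 8, all lower, against 5.47% of all genes. The log2 fold change of INSIG1 was then -1.04 (adjusted p = 0.137) and that of NPC1 -0.33 (adjusted p = 0.534). None of the 8 passed the criteria by edgeR's quasi-likelihood test, which 0.0261% of all genes passed. The comparison without CLs-1 has 2 samples in a group, and its separation counts were chosen after the data were seen.

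**Figure D3:**
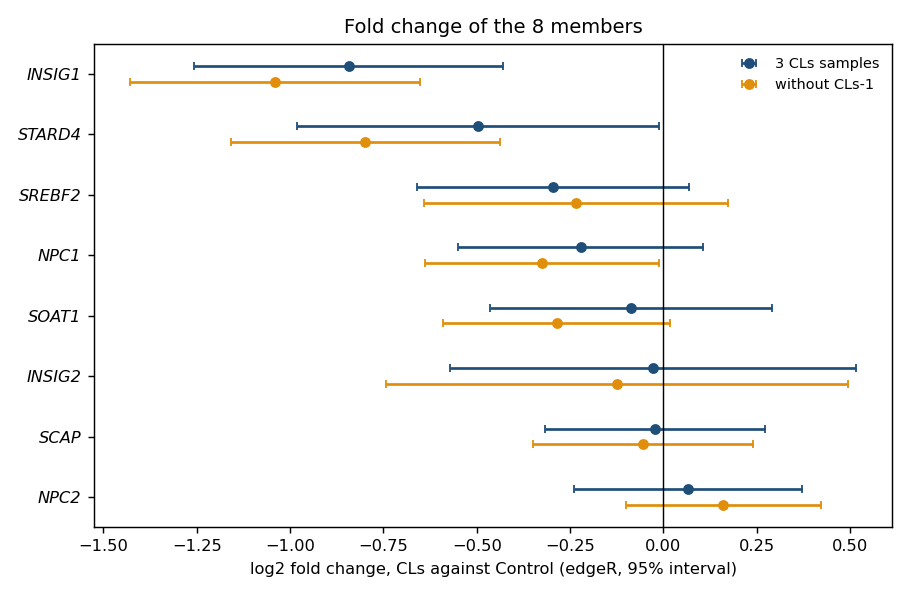
Log2 fold change of the CLs-treated group against Control for each member (horizontal axis), with 95% intervals from the edgeR fit, for all 6 samples in blue and without CLs-1 in orange. The intervals of INSIG1 and STARD4 lie below 0 in both fits, STARD4 moves from -0.50 to -0.80 without CLs-1, the others include 0 with all 6 samples, and that of NPC1 ends at -0.01 without CLs-1.

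The levels of the members relative to each other were set per length, as CPM per kilobase of the exons that GENCODE's GRCh38 annotation gives for each gene, joined. In the control group the order was SREBF2 at 36.6, NPC2 at 24.8, SCAP at 16.9, INSIG1 at 16.2, NPC1 at 8.03, SOAT1 at 7.53, STARD4 at 3.32 and INSIG2 at 1.81 CPM per kb. SCAP and INSIG1 overlapped over the control samples, at 14.8 to 18.5 and 14.3 to 19.3 CPM per kb, and NPC1 overlapped with SOAT1. Within each control sample NPC1 was above SOAT1, while INSIG1 was above SCAP in Control-3 alone. The other neighbours in this order were apart in all 3 controls. In the CLs-treated group INSIG1, at 7.23 to 11.3 CPM per kb, lay below SCAP in all 3 samples, at 15.8 to 17.3. It overlapped with NPC1 at 6.20 to 7.83 and with SOAT1 at 5.92 to 8.89. SREBF2 and NPC2 overlapped there too, at 27.3 to 33.7 and 22.5 to 28.4, and so did STARD4 and INSIG2, at 1.83 to 3.20 and 1.53 to 2.00 CPM per kb. These overlaps are between samples. Within each CLs-treated sample INSIG1 was above NPC1 and SOAT1, SREBF2 above NPC2 and STARD4 above INSIG2. Unlike in the controls, SOAT1 was above NPC1 in CLs-1 and CLs-3, and below it in CLs-2. These levels are lower where a gene's longest exons are not used in these cells, and the authors' annotation was of another build.

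**Figure D4:**
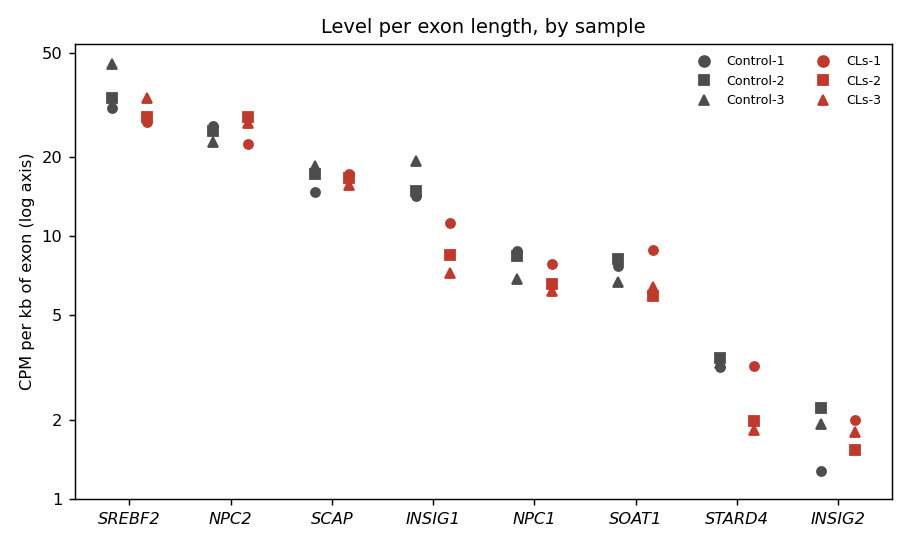
Level per kilobase of exon in each sample (logarithmic vertical axis, CPM per kb), with members ordered by their mean in the control group, Control in grey and CLs in red. SREBF2 is highest at 30.9 to 45.3 in the controls and INSIG2 lowest at 1.28 to 2.23. INSIG1 moves from beside SCAP to beside NPC1 and SOAT1.

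Exons of 4 members overlap exons of a gene on the other strand in that annotation. These are NPC1 with RMC1 over 604 bases, SREBF2 with SREBF2-AS1 over 280, STARD4 with STARD4-AS1 over 124 and NPC2 with ISCA2 over 103 bases. Whether the counting used strand is not given in the sources used here, so reads there could be missing from the members' counts. NPC2 also shares 72 exon bases with MIR4709 on the same strand, where strand cannot tell their reads apart.

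The genes whose profile over the 6 samples was most like that of INSIG1 were found among 11505 genes with a mean of at least 5 CPM. Likeness was the mean absolute difference of log2(CPM + 1) values centred on each gene's mean, whose median over all these genes was 0.448. The nearest was FASN, the fatty acid synthase, at 0.0982, followed by ARHGAP28 at 0.117, DRAM1 at 0.129, ARID5B at 0.131 and CRIM1 at 0.137. FASN had a log2 fold change of -0.69 (adjusted p = 0.303). For STARD4 the nearest were FIGN at 0.0484, ARID5B at 0.0669, MTMR10 at 0.0721, the nuclear receptor NR4A1 at 0.0727 and MBNL2 at 0.0732, against a median of 0.345. ARID5B was near to both members. The 6 samples fall into the same groups and share depth and library effects for all genes, so likeness here is a description.

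Of other genes that act on SREBP processing or on sterol-regulated degradation, 18 were tested and none passed the criteria or an unadjusted p-value under 0.05 in edgeR, and none passed in DESeq2. Their log2 fold changes lay between -0.18 and 0.20, with a median of 0.06. SREBF1, which encodes the SREBP1 proteins, ranged from 1132 to 3082 counts over the controls and from 1830 to 1945 after CLs, all within the wide range of the controls. Its log2 fold change was -0.18 (adjusted p = 0.998). That of FBXW7, part of a ubiquitin ligase that targets active SREBPs, was -0.17. UFD1L and RNF139, both of ER protein degradation, had 0.20 and 0.17. RNF139 was the sole gene of the list whose groups did not overlap, with the CLs-treated group higher, as in 5.34% of all genes.

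Of lipoprotein receptors and endocytic adaptors, 20 were tested, with 10 below 0, a median log2 fold change of 0.00 and none past the criteria in edgeR or DESeq2. The lowest value was that of DAB2, a clathrin adaptor for lipoprotein receptors. It had 1081, 1252 and 1162 counts in the control samples and 1037, 887 and 736 in the CLs-treated samples, which in CPM were all below the controls. Its log2 fold change was -0.50 (SE 0.13, adjusted p = 0.296), and it was the sole gene of the 20 with an unadjusted p under 0.05, against 5.81% of all genes. The groups of SCARB1, a receptor for high density lipoproteins, were also apart, with a log2 fold change of -0.22 (adjusted p = 0.930). DAB2 and SCARB1 were the 2 of the 20 with groups apart, both lower, against 6.18% of all genes. VLDLR, a receptor for very low density lipoproteins, had -0.48 (adjusted p = 0.905). MYLIP, a ubiquitin ligase that promotes breakdown of lipoprotein receptors, had 0.29 and LRPAP1, a receptor chaperone, 0.15, with adjusted p = 0.998 for both.

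Of 22 genes of endosomal and intracellular sterol transport, 14 were above 0, with a median of 0.07 and none past the criteria in edgeR or DESeq2. GRAMD1B, which moves cholesterol from the plasma membrane to the ER, had 3225, 3594 and 3505 counts in the control samples and 4832, 4196 and 4731 in the CLs-treated samples. Its levels in CPM did not overlap between the groups. The difference in log2 was 0.32 (SE 0.13, adjusted p = 0.791), and it was the sole gene of this list with an unadjusted p-value under 0.05, against 2.19% of all genes higher. OSBPL1A at 0.23 (adjusted p = 0.930) and LAMP2, a lysosomal membrane protein, at 0.20 (adjusted p = 0.971) were also higher with groups apart, 3 of the 22 with GRAMD1B, against 5.34% of all genes. OSBP, a sterol carrier to the Golgi apparatus, had -0.19 (adjusted p = 0.970). GRAMD1C had -0.43 with a standard error of 0.43, from 8 to 24 counts per library.

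Of 10 genes of cholesterol esterification, ester breakdown and droplets, 5 had enough reads and none passed the criteria or an unadjusted p under 0.05 in edgeR, and none passed in DESeq2. NCEH1, a hydrolase of cholesterol esters, had -0.41 (adjusted p = 0.855), LCAT, the esterifying enzyme of plasma lipoproteins, -0.15 and DGAT2, of triglyceride synthesis, 0.30. Of the other 5, the droplet protein PLIN2 had 91 counts in CLs-1 against 7 or fewer elsewhere, and CIDEB had 0 counts in all.

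The synthesis enzymes, the largest group of known SREBP2 targets, were set beside INSIG1 and STARD4. Of 20 enzymes 18 were below 0, and their median log2 fold change was -0.50, against -0.15 for the 8 members and 0.01 for all genes. The criteria were met by 0 of the 20 in edgeR and 6 in DESeq2, against 0.0864% and 0.753% of all genes. In edgeR 14 were lower at an unadjusted p-value under 0.05, against 3.62% of all genes. For 12 of these enzymes all CLs-treated samples were below all controls, against the 6.18% of all genes given above. INSIG1, at -0.84, lay near MVD, the mevalonate diphosphate decarboxylase, at -0.87 (adjusted p = 0.0974). TM7SF2, a sterol reductase, had the lowest value, -0.97 (adjusted p = 0.392), and PMVK and LBR were the 2 above 0, at 0.11 and 0.20. MVD and TM7SF2 are among the enzymes that the study, with EBSeq, lists as differentially expressed. Without CLs-1 the median of the enzymes was -0.55.

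**Figure D5:**
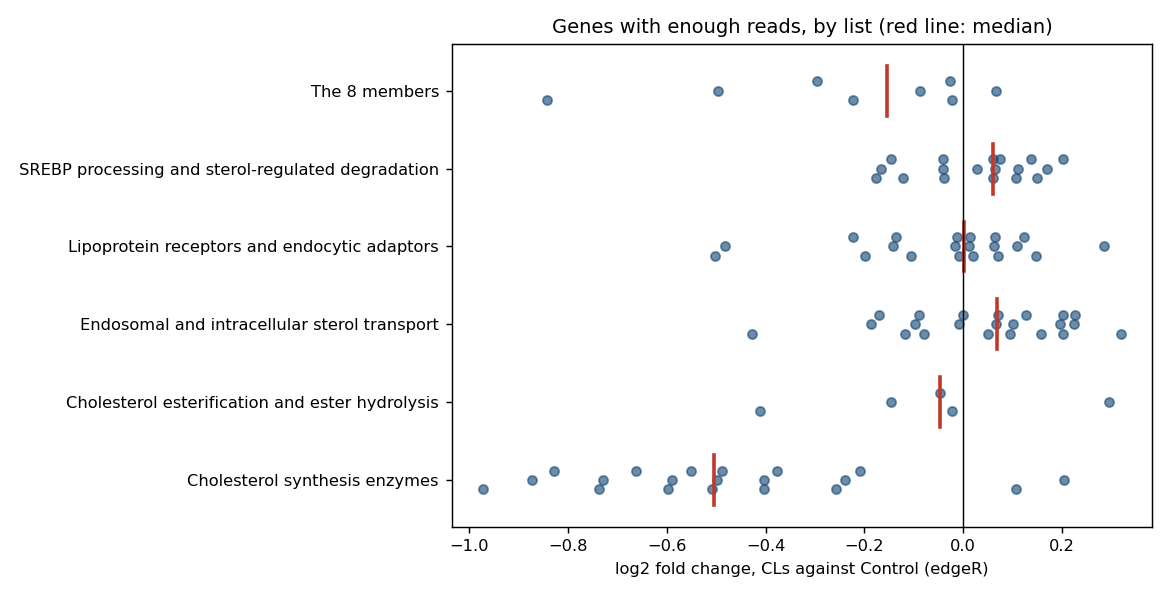
Log2 fold change of each gene with enough reads (points, horizontal axis) for the 8 members and 5 lists of genes of the same route, with the median of each list as a red line. The synthesis enzymes have a median of -0.50 and the members -0.15, while the other 4 lists have medians between -0.05 and 0.07.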

How the data were processed

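Gene expression was measured by single-end RNA-seq in 6 samples. The authors mapped filtered reads with MapSplice and deposited whole-number counts of reads per gene symbol, without normalization. The submitters' processing notes name HTSeq 0.6.1 and the builds hg19 and GRCh37. The counting options and annotation are not given in the sources used here. Depth was 11418527 to 13998946 counts, and floors of 3 counts cover counting error only. All columns were used.

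The quasi-likelihood F test of edgeR 4.0.16 (R 4.3.3), with group as the sole term, was run on counts after filterByExpr and TMM scaling, and p-values were adjusted over 15047 genes (Benjamini-Hochberg). This count test stands in place of the study's EBSeq on RPKM and keeps its criteria. Standard errors were derived from the F statistic. The procedure was tested on simulated data. Ratios were compared by exact two-sided permutation. Alternatives were DESeq2 1.42.0, other scalings and filters, a pseudocount of 1 CPM for ratios, no fold criterion, blocking by replicate number, and leaving out single samples. Members and lists were chosen with earlier results of these data known. Genes named are the members, in each list the genes past the criteria and up to 2 with the largest rise and 2 with the largest fall, for STARD4 and INSIG1 the 5 with the nearest profiles, and markers at 0 or highest in their list. SOAT2, PLIN2, CIDEB, SCARB1, LAMP2 and further single markers were added after their values were seen. Some single genes are not reported here. Promoter sequences were RefSeq's.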

Additional observations from a re-analysis of the deposited data

How the results depend on the processing

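Of the members' 104 fold changes under 13 alternatives, 94 kept their direction and their side of the criteria, and none of the alternatives shifted the median of all genes by over 0.1. INSIG1 passed the criteria in DESeq2 (log2 fold change -0.85, 1 member called) and with no filter on low counts (-0.84, 1 member called), and the cause was not tested. Over all genes 2 were called higher and 11 lower in edgeR, against 15 and 90 in DESeq2, 58 and 113 with no filter, and 12 and 56 under the replicate block (the replicate number as a term), and scaling by library totals alone gave 6 lower. Of the synthesis enzymes 6 were called in DESeq2, 5 with no filter and 2 with the replicate block, and of the esterification genes 1, PLIN2, with no filter. Library totals alone moved SCAP to 0.002 and the median of the SREBP processing genes to 0.0843.

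Leaving out single samples gave 1 to 3 calls higher and 2 to 6 lower. These fits have fewer samples, and the cause of the lower counts was not tested. Leaving out single samples moved the log2 fold change of INSIG2 between -0.23 and 0.15, of SCAP between -0.11 and 0.0499, of NPC2 between -0.0024 and 0.16 and of SOAT1 between -0.29 and 0.0265, so the sign of each of the 4 depends on single samples. INSIG1 ranged from -1.04 to -0.69 and STARD4 from -0.80 to -0.35. SREBF2 ranged from -0.40 to -0.11 and NPC1 from -0.33 to -0.15. Medians ranged from -0.0417 to 0.0514 for SREBP processing, from -0.0688 to 0.0433 for receptors and adaptors, from 0.0204 to 0.0952 for sterol transport, from -0.16 to 0.0475 for esterification, so the sign of 3 of these medians depends on single samples, and from -0.64 to -0.40 for synthesis enzymes. Members whose groups did not overlap numbered 1 to 5 of 8, against 16.7% to 27.3% of all genes, counts chosen after seeing the data. The 5 and the 27.3% are those without CLs-1.

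The replicate numbers are shared by the groups, but no label says that a number marks a shared day or batch. Deviations of same-numbered samples correlated at 0.0998, 0.122 and 0.333, and all 6 samples correlated best with their own number, a hint from the data and not from the design. With the replicate block INSIG1 had -0.85 (adjusted p = 0.0810) and no member was called, and the INSIG ratio differed by -0.86 (exact sign-flip p = 0.25, the smallest for 3 pairs).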
